A study of Homo sapiens with 9 samples.

Results

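The mRNA levels of 9 genes of the Notch pathway were followed in A375 melanoma cells treated with TP-472. The set holds 3 receptors (NOTCH1, NOTCH2 and NOTCH3), 3 ligands (JAG1, JAG2 and DLL1) and 3 target genes of the HES and HEY families (HES1, HES4 and HEY1). The genes were taken by name for their place in the pathway, out of 26475 gene symbols in the count table, and all 9 were among the 16417 genes that passed the filter on low counts.

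Notch receptors are single-pass proteins of the cell surface that are activated by ligands of the Jagged and Delta-like families on a neighbouring cell. Ligand binding exposes the receptor to an ADAM protease and then to γ-secretase, and the released intracellular domain enters the nucleus, where it binds the DNA-binding protein RBPJ and a Mastermind coactivator and switches on target genes. The best known targets encode the HES and HEY proteins, which are transcriptional repressors of the basic helix-loop-helix type. In the pigment lineage, Notch signalling is known for keeping melanoblasts and melanocyte stem cells alive, and it has been studied in melanoma as a growth signal.

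A375 is an established human melanoma cell line with mutant BRAF, and TP-472 is a chemical probe that binds the bromodomains of BRD9 and BRD7, both of which are subunits of SWI/SNF chromatin remodelling complexes. Cells received the vehicle DMSO or TP-472 at 5 µM or at 10 µM, RNA was taken after 24 h, and each of these 3 groups has 3 libraries, which the submitters describe as biological replicates. No allele was engineered in any group, and the cells shared 1 line, 1 medium and 1 time point. The readout was mRNA, so neither receptor cleavage nor ligand contact was measured.

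Each library held between 42483091 and 51298130 expected counts. Levels are given in CPM, the count relative to the scaled library size, on which 1 count was worth about 0.02 CPM. A gene is called changed where edgeR's quasi-likelihood test gave a Benjamini-Hochberg adjusted p under 0.05 over all genes tested and a fold change of at least 1.5. Among the melanocyte markers, SOX10 was high in all groups (means of 391 to 416.5 CPM) and MITF was present (29.09 to 31.94 CPM). S100B averaged 6.64 to 7.09 CPM and PMEL 1.48 to 2.04 CPM. TYRP1 (0.332 to 0.604 CPM) and MLANA (0.135 to 0.173 CPM) were barely detected. DCT was too low to be tested, and the pigment gene TYR was at 0 in every library. The summed level of the 4 leukocyte markers was at most 1.55 CPM, with CD3E at 0. Over all libraries, the summed epithelial markers ranged from 6.52 to 10.9 CPM, most of it KRT14 (means of 6.92 to 7.25 CPM). The summed endothelial markers ranged from 1.84 to 3.7 CPM. The summed fibroblast markers ranged from 5.82 to 6.76 CPM with DMSO, 6.13 to 7.14 CPM at 5 µM and 3.08 to 4.67 CPM at 10 µM, and their part in the results was not tested. The lower sum at 10 µM came from PDGFRA, which was called lower (3.31 ± 0.624 CPM with DMSO and 0.977 ± 0.271 CPM at 10 µM), while LUM measured 2.41 and 2.28 CPM and DCN 0.661 and 0.673 CPM in these groups.

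1 library stood apart in its relation to transcript length. In 10 µM replicate 1, genes with long transcripts read low and genes with short transcripts read high: the median deviation from the group mean was -0.33 on the log2 scale for genes with a longest transcript over 6000 bases, and 0.36 for genes of up to 1500 bases. The other 10 µM libraries deviated by 0.16 and 0.17 for the long genes and by -0.17 and -0.15 for the short ones. The Notch genes span almost this whole range of lengths, from the 11389 bases of NOTCH2 to the 1040 bases of HES4, so values at 10 µM are given below with and without this library. In counts, 5 µM replicate 1 also differed more from 5 µM replicates 2 and 3 (chi-square per degree of freedom of 57.3 and 38.1) than these did from each other (9.67). Ribosomal RNA genes took 8.79 to 10.9% of counts with DMSO, 10.6 to 16.6% at 5 µM (highest in replicate 1) and 8.20 to 19.9% at 10 µM.

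The promoters of HES1 and HES4 are printed here because they held TGGGAA, the core letters of the sequence that RBPJ is known to bind. They were the ones that did among the 7 genes of this set with a promoter entry, which do not include HEY1 and DLL1. RBPJ itself changed with treatment, as given further on. Shown are the 250 bases before the RefSeq transcription start in GRCh38.p14, 5′ to 3′ on the strand of the gene, with each TGGGAA in capitals. The HES1 window is chr3:194135898-194136147 on the plus strand, and the HES4 window is chr1:1000098-1000347 on the minus strand.

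HES1: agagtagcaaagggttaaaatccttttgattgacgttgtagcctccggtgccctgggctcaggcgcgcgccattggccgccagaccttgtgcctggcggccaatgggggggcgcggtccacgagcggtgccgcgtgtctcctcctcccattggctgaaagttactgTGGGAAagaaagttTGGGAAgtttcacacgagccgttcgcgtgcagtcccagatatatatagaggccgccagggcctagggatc

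HES4: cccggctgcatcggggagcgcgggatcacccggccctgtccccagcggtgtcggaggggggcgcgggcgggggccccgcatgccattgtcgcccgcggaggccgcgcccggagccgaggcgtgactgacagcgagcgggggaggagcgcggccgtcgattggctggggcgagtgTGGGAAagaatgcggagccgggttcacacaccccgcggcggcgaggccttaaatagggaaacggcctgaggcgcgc

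HES1 held the letters at 2 places, starting 84 and 70 bases before the transcription start (-84 and -70), and HES4 held them at 1 place (-76), each on the strand of the gene. RefSeq promoter entries were matched for 7 of the 9 genes, and the windows of NOTCH1, NOTCH2, NOTCH3, JAG1 and JAG2 held neither TGGGAA nor its reverse complement TTCCCA. Over all 35116 promoter windows of the same length, 20.8% held the letters on either strand. The letters CACGTG, an E-box that reads the same on both strands, were in none of the 7 windows and in 6.34% of all windows. These matches describe the letters only.

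Of the 9 Notch genes, HEY1 was the one whose mRNA changed by both criteria. HEY1, a repressor named for its hairy-related sequence, fell with 10 µM TP-472 to a mean of 2.68 ± 0.753 CPM (SD, n = 3) from 5.30 ± 0.118 CPM with DMSO. At 10 µM, 1 of the 9 genes was called lower, when 10.5% of all genes tested were, and 0 were called higher, when 8.57% of all genes were. At 5 µM, 0 of the 9 were called in either direction, when 2.14% of all genes were called higher and 2.72% lower. In edgeR's test, an unadjusted p under 0.05 was reached at 5 µM by 1 gene on the lower side (HEY1) and 0 on the higher side. At 10 µM it was reached by 2 genes on the higher side (DLL1 and HES1). The share of all genes at that unadjusted p is not given here. DESeq2 called 1 gene lower at 5 µM (HEY1) and 1 higher at 10 µM (DLL1). The median log2 fold change of the 9 genes was -0.01 at 5 µM and 0.12 at 10 µM, beside 0.01 at both doses over all genes tested. In bulk RNA, fewer cells expressing a gene and less RNA per cell cannot be told apart.

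**Figure D1:**
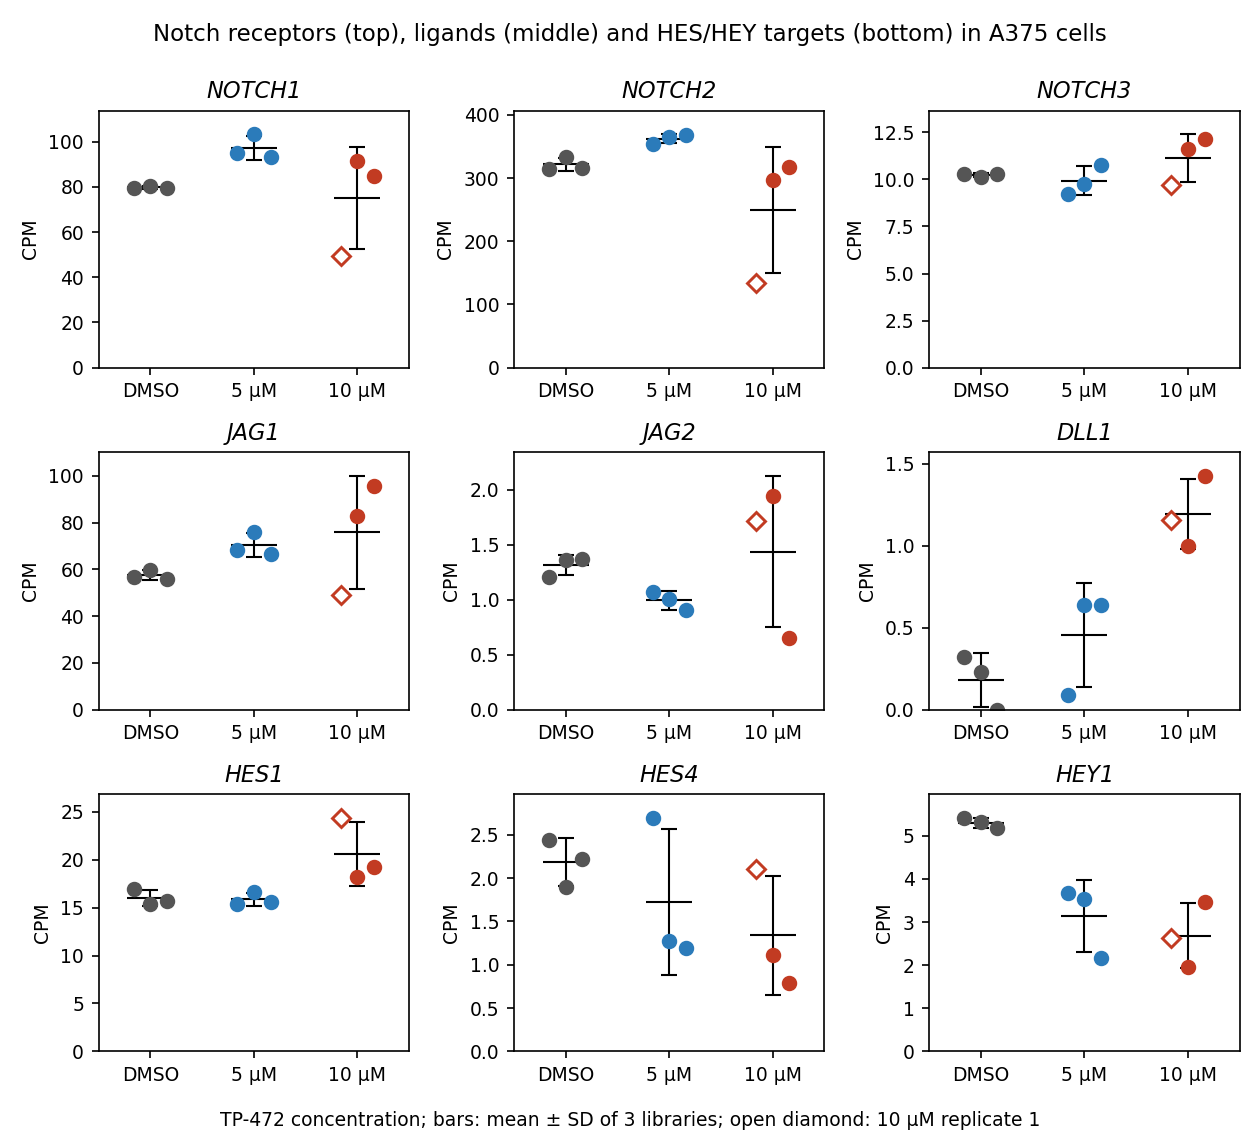
Level of each Notch gene in CPM (vertical axes, starting at 0) in the 3 libraries of each group (horizontal axes, TP-472 concentration), with bars for the mean ± SD and an open diamond for 10 µM replicate 1. HEY1 lies below every DMSO library at both doses, and the 10 µM values of NOTCH1, NOTCH2 and JAG1 are split between replicate 1 and the other libraries.

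Among the receptors, NOTCH2 had the highest level per kilobase, and it did not pass the test at either dose. NOTCH2 (chr1:119911553-120069626, minus strand, hg38) measured 315, 333.8 and 316.2 CPM with DMSO, 353.8, 365.2 and 367.8 CPM at 5 µM, and 134.7, 296.6 and 317.3 CPM at 10 µM. The 5 µM libraries all lay above the DMSO libraries, and 10 µM replicate 1 lay far below everything else. The log2 fold change against DMSO was 0.17 (SE 0.246, adjusted p = 0.752) at 5 µM and -0.37 (SE 0.246, adjusted p = 0.286) at 10 µM. Without 10 µM replicate 1 the 10 µM value was -0.07 (adjusted p = 0.165). NOTCH2 has a near-identical partial copy, NOTCH2NL, and its expected counts were not whole in 100% of the libraries, as happens where RSEM divides reads between genes. NOTCH2NL itself averaged 77.2 ± 3.71 CPM in the DMSO libraries (SD, n = 3), 78.1 ± 5.62 CPM in the 5 µM libraries and 76.6 ± 9.12 CPM in the 10 µM libraries, and it read 87.1 CPM in 10 µM replicate 1, where NOTCH2 was at its lowest. The level of NOTCH2 is therefore less certain than that of the other receptors.

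NOTCH1 (chr9:136494433-136545786, minus strand), the receptor with the best known role in development and leukaemia, measured 79.4, 80.3 and 79.5 CPM with DMSO. At 5 µM it measured 94.9, 103.4 and 93.4 CPM, all above DMSO, with a log2 fold change of 0.29 (SE 0.183, adjusted p = 0.396). At 10 µM the libraries read 49.5, 91.3 and 84.6 CPM, on both sides of the DMSO range. The log2 fold change at 10 µM was -0.09 (SE 0.183, adjusted p = 0.759), and it turned positive without replicate 1, to 0.14 (adjusted p = 0.0452), which is well under the limit of 1.5-fold. The direction of NOTCH1 at 10 µM was thus set by 1 library.

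NOTCH3 (chr19:15159038-15200981, minus strand) was the least abundant of the receptors and the most even. It measured 10.28, 10.12 and 10.28 CPM with DMSO, 9.25, 9.76 and 10.8 CPM at 5 µM, and 9.69, 11.6 and 12.1 CPM at 10 µM, and the 3 groups overlapped. Its log2 fold change was -0.04 (SE 0.117, adjusted p = 0.878) at 5 µM and 0.12 (SE 0.117, adjusted p = 0.459) at 10 µM. With a trend over transcript length and GC content removed from each library, the 10 µM value was 0.48 (adjusted p = 0.00304), still under the fold limit. Without 10 µM replicate 1 it was 0.21 (adjusted p = 0.12).

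Of the ligands, JAG1 had the highest level per kilobase, and it was called higher at 10 µM in 1 of 18 alternatives, the fit without 10 µM replicate 1. JAG1 (chr20:10637684-10673999, minus strand) measured 56.7, 59.8 and 55.7 CPM with DMSO, 68.3, 76.1 and 66.7 CPM at 5 µM, and 48.9, 82.8 and 95.7 CPM at 10 µM. All 5 µM libraries and 2 of the 10 µM libraries lay above DMSO, and 10 µM replicate 1 lay below it. The log2 fold change was 0.29 (SE 0.196, adjusted p = 0.422) at 5 µM and 0.40 (SE 0.196, adjusted p = 0.144) at 10 µM. Without 10 µM replicate 1, JAG1 was called higher at 10 µM by 1.55-fold (log2 0.63, adjusted p = 1.63e-06), and with the length and GC trend removed its log2 fold change was 0.51 (adjusted p = 0.00955), under the fold limit.

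JAG2 and DLL1 were expressed at low levels. JAG2 (chr14:105140981-105168824, minus strand), the second Jagged ligand, measured 1.21, 1.36 and 1.37 CPM with DMSO, 1.07, 1.01 and 0.903 CPM at 5 µM, and 1.72, 1.94 and 0.652 CPM at 10 µM. The 5 µM libraries lay below DMSO and the 10 µM libraries on both sides of it, and the log2 fold changes of -0.40 (SE 0.396, adjusted p = 0.62) and 0.13 (SE 0.392, adjusted p = 0.833) did not pass the test. The 10 µM value became -0.02 without 10 µM replicate 1 and -0.15 without 10 µM replicate 2, so its sign was not settled. In the annotation, 7.33% of its exon bases overlap a second gene on the same strand.

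DLL1 (chr6:170282206-170306565, minus strand), a Delta-like ligand, rested on 16, 11 and 0 counts in the DMSO libraries, 4, 33 and 31 counts at 5 µM, and 56, 52 and 70 counts at 10 µM. On the CPM scale this is 0.322, 0.226 and 0 with DMSO, 0.0876, 0.639 and 0.636 at 5 µM, and 1.16, 1.00 and 1.43 at 10 µM. Every 10 µM library lay above every other library, and the 5 µM group overlapped DMSO. The log2 fold change at 10 µM was the largest of the 9 genes at 2.67, but with an SE of 0.963 and an adjusted p = 0.056 it just missed the call. It was called higher in 5 of 18 alternative analyses, among them DESeq2 (log2 2.70, adjusted p = 0.00999), the fit without 10 µM replicate 1 (2.69, adjusted p = 0.0237), the fit without 5 µM replicate 1 (2.66, adjusted p = 0.042) and the fit with the length and GC trend removed (2.76, adjusted p = 0.0408). The other was the fit with a filter of 1 CPM in 3 libraries (2.68, adjusted p = 0.0298). DLL1 passed that filter only through its 10 µM libraries, so this call adds no support. Its adjusted p ranged up to 0.134, without DMSO replicate 2. At 5 µM the log2 fold change was 1.29 (SE 0.953, adjusted p = 0.476).

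Of the 3 target genes, HEY1 fell, and neither HES1 nor HES4 was called. HES1 (chr3:194136145-194138732, plus strand), the oscillating repressor that is the classical Notch target, measured 16.9, 15.4 and 15.7 CPM with DMSO and 15.4, 16.7 and 15.6 CPM at 5 µM, which overlapped. At 10 µM it measured 24.4, 18.2 and 19.2 CPM, above every DMSO library. The log2 fold change was -0.01 (SE 0.118, adjusted p = 0.977) at 5 µM and 0.36 (SE 0.118, adjusted p = 0.0373) at 10 µM. This 1.29-fold difference passed the adjusted p but not the fold limit, and it was called in 0 of 18 alternatives, with an adjusted p between 0.0205 and 0.212. Without 10 µM replicate 1, in which the short HES1 transcript read high, it was 0.22 (adjusted p = 0.0453), and with the length and GC trend removed it was 0.15 (adjusted p = 0.168).

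HES4 (chr1:998962-1000172, minus strand), a HES repressor that mice lack, measured 2.44, 1.89 and 2.22 CPM with DMSO, 2.70, 1.28 and 1.19 CPM at 5 µM, and 2.11, 1.12 and 0.795 CPM at 10 µM. In each treated group replicate 1 lay within or above the DMSO range and the other libraries lay below it. The log2 fold change was -0.34 (SE 0.423, adjusted p = 0.704) at 5 µM and -0.71 (SE 0.426, adjusted p = 0.234) at 10 µM. Without 10 µM replicate 1, HES4 was called lower at 10 µM by 2.29-fold (log2 -1.19, adjusted p = 0.0196), and with the length and GC trend removed it was not (-0.65, adjusted p = 0.206).

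HEY1 (chr8:79764010-79767863, minus strand) measured 5.41, 5.31 and 5.18 CPM with DMSO, 3.68, 3.54 and 2.18 CPM at 5 µM, and 2.62, 1.96 and 3.46 CPM at 10 µM. Every treated library lay below every DMSO library, and the treated groups overlapped each other. At 10 µM, HEY1 fell by 1.98-fold (log2 -0.98, SE 0.256, adjusted p = 0.0146). It was called lower at 10 µM in 18 of 18 alternatives, with a log2 fold change between -1.21 and -0.80 and an adjusted p between 0.00229 and 0.0488. Leaving out 10 µM replicate 1 gave -0.97 (adjusted p = 0.00668). At 5 µM the log2 fold change of -0.76 (SE 0.255, adjusted p = 0.0938) missed the call in the fit of all libraries, and it was called in 3 of 18 alternatives, namely DESeq2 (adjusted p = 0.0423), the fit of the 5 µM and DMSO groups alone (adjusted p = 0.00578) and the fit without 10 µM replicate 1 (adjusted p = 0.0188). The summed counts behind HEY1 were 746 with DMSO, 457 at 5 µM and 399 at 10 µM.

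**Figure D2:**
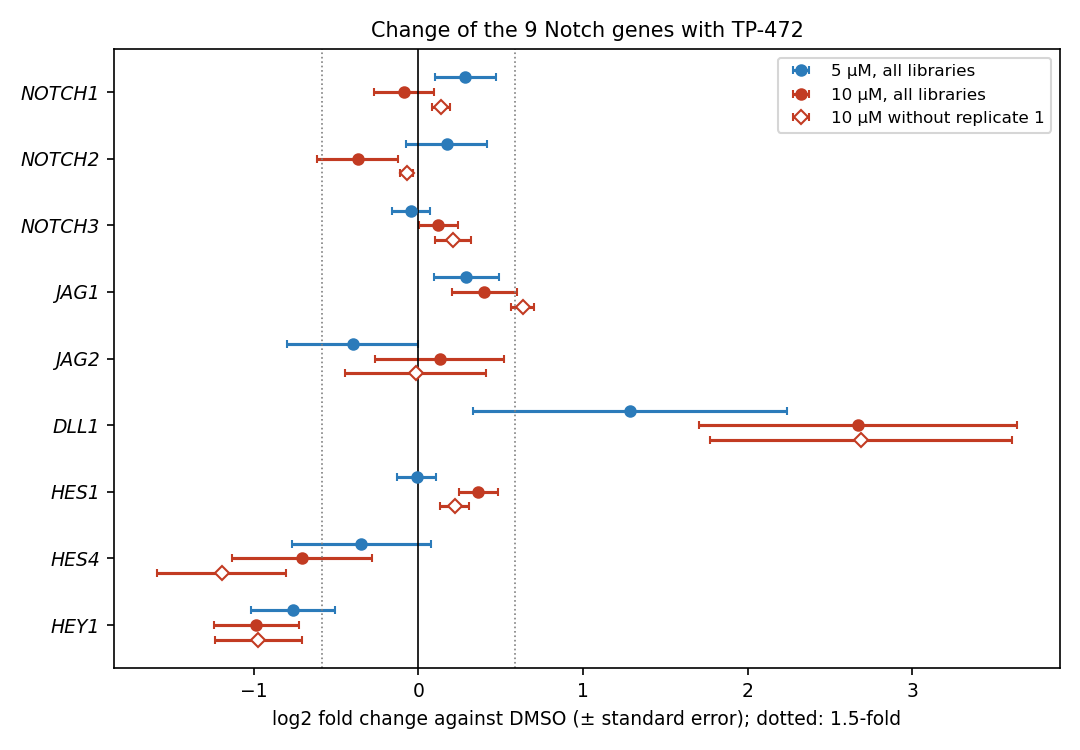
Log2 fold change against DMSO (horizontal axis, bars ± standard error) of each Notch gene at 5 µM, at 10 µM and at 10 µM without replicate 1, with dotted lines at 1.5-fold. HEY1 stays near -0.98 with and without the library, while NOTCH1 passes from -0.09 to 0.14 and HES4 from -0.71 to -1.19.

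How far 10 µM replicate 1 departed from its group followed transcript length in most of the 9 genes. Its level was 0.439 times the mean of the other 10 µM libraries for NOTCH2, 0.563 times for NOTCH1 (9306 bases), 0.548 times for JAG1 (5940 bases) and 0.817 times for NOTCH3 (8666 bases). For the short genes the ratio was 1.30 for HES1 (1578 bases) and 2.21 for HES4. HEY1, with 2296 bases, had a ratio of 0.967 and DLL1, with 3174 bases, one of 0.954. JAG2 was the exception, with a ratio of 1.32 at 5835 bases, on fewer counts. Without this library, 2 of the 9 genes were called higher at 10 µM (JAG1 and DLL1) and 2 lower (HES4 and HEY1), when 8.17% of all genes tested in that fit were called higher and 11% lower.

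**Figure D3:**
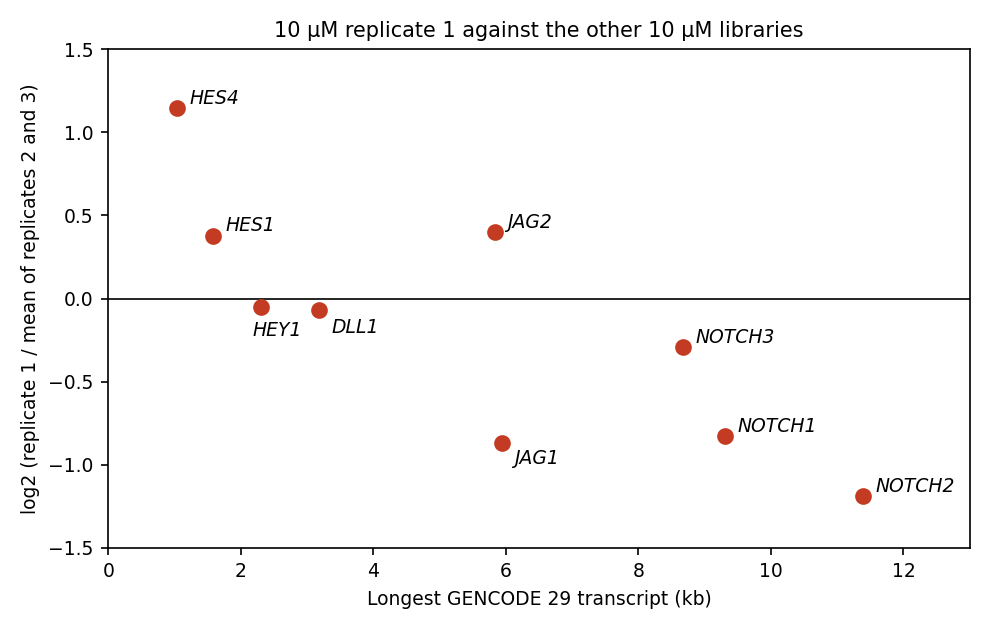
Log2 ratio of 10 µM replicate 1 to the mean of 10 µM replicates 2 and 3 (vertical axis) against the length of the longest annotated transcript in kilobases (horizontal axis) for the 9 Notch genes. HES4 lies highest and NOTCH2 lowest, and HEY1 and DLL1 lie near 0.

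Comparing the 2 doses with each other, 0 of the 9 genes were called in either direction, when 1.42% of all genes were called higher and 2.59% lower at 10 µM than at 5 µM. HES1 alone reached an unadjusted p under 0.05 in edgeR's test (log2 difference 0.37, SE 0.118, adjusted p = 0.0838), and DESeq2 called 0 of the 9. The log2 difference for HEY1 was -0.22 (SE 0.257, adjusted p = 0.633) and that for DLL1 was 1.38 (SE 0.9, adjusted p = 0.376). NOTCH1 (-0.37, SE 0.183) and NOTCH2 (-0.54, SE 0.246) were lower at 10 µM in all libraries without passing the test (adjusted p = 0.241 and 0.211). When 10 µM replicate 1 was left out, the log2 differences of NOTCH1 and NOTCH2 shrank to -0.15 (adjusted p = 0.062) and -0.24 (adjusted p = 0.000417), that of HES4 went from -0.36 to -0.85 (adjusted p = 0.133) and that of JAG1 from 0.11 to 0.34 (adjusted p = 0.00191). HES1 then differed by 0.23 (adjusted p = 0.0648), HEY1 by -0.21 (adjusted p = 0.618), DLL1 by 1.403 (adjusted p = 0.271), NOTCH3 by 0.25 (adjusted p = 0.0985) and JAG2 by 0.38 (adjusted p = 0.573), and 0 of the 9 genes were called in that fit either. These values do not show that the doses act alike. The 3 comparisons share libraries, so their values are not independent of each other.

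Levels of different genes were compared per kilobase of the longest annotated transcript. With DMSO, NOTCH2 led at 28.2 ± 0.924 CPM per kb (SD, n = 3), followed by HES1 at 10.1 ± 0.521, JAG1 at 9.67 ± 0.354 and NOTCH1 at 8.57 ± 0.0532 CPM per kb. HEY1 (2.31 ± 0.0515 CPM per kb), HES4 (2.099 ± 0.263 CPM per kb) and NOTCH3 (1.18 ± 0.0107 CPM per kb) formed a lower tier, and JAG2 (0.225 ± 0.0156 CPM per kb) and DLL1 (0.0576 ± 0.0521 CPM per kb) came last. Neighbours whose DMSO ranges overlapped were HES1 with JAG1 and HEY1 with HES4. At 10 µM the last places were exchanged, with DLL1 at 0.376 ± 0.0679 and JAG2 at 0.246 ± 0.118 CPM per kb, whose ranges overlapped. HEY1 stood below NOTCH3 at 10 µM, with 1.17 ± 0.328 against 1.29 ± 0.148 CPM per kb, and these ranges overlapped too. NOTCH2 and JAG1 remained the leading receptor and ligand in all 3 groups.

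By the root mean square difference of log2 CPM over the 9 libraries, each centred on its DMSO mean, the genes most like HEY1 among those with a mean of at least 1 CPM were EPAS1 and QPRT, both at 0.208. EPAS1, which encodes the hypoxia-inducible factor HIF-2α, averaged 15.1 CPM with DMSO against 8.16 CPM at 5 µM and 7.29 CPM at 10 µM. QPRT, an enzyme of NAD synthesis from tryptophan, averaged 1.98, 1.07 and 1.06 CPM. Both were selected for their likeness to HEY1, so their levels are a description.

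Beyond these 9 genes, 64 other genes of the Notch pathway were listed by their role, and 59 of them passed the filter on low counts. At 10 µM, 5 of the 59 were called higher and 10 lower, beside the 8.57% and 10.5% of all genes given above. The median log2 fold change of the 59 was -0.18, beside 0.01 over all genes tested. This median includes 10 µM replicate 1, in which genes with long transcripts read low, and its value without that library is not given. At 5 µM, 0 of the 59 were called higher and 1 lower, when 2.14% and 2.72% of all genes tested were. Between doses 0 were called higher and 2 lower at 10 µM, when 1.42% and 2.59% of all genes tested were. For the counts of 0, edgeR's unadjusted p was under 0.05 on the higher side for 6 genes at 5 µM and for 4 genes between doses. The share of all genes at that unadjusted p is not given here. DESeq2 called 0 pathway genes higher in both comparisons. Without 10 µM replicate 1, 4 of the 5 higher and 7 of the 10 lower calls at 10 µM were kept, and at 5 µM 1 gene was called higher (DLL3) and 4 lower (LFNG, NEURL1B, MAML2 and HEY2), when 3.43% and 3.98% of all genes in that fit were. In every one of the alternative analyses, 2 of the 5 higher calls held (FBXW7 and HES6). Of the 10 lower calls, 6 held (among them LFNG, APH1B, RBPJ, MAML2 and L3MBTL3). The matching shares of calls kept over all genes are not given, here or for the fit without 10 µM replicate 1.

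RBPJ and MAML2, which work with the Notch intracellular domain in the nucleus, fell. RBPJ, the DNA-binding protein through which all Notch receptors act, fell from 221.4 ± 1.54 CPM with DMSO to 119.6 ± 5.86 CPM at 10 µM (SD, n = 3; log2 -0.89, SE 0.0688, adjusted p = 1.1e-05). Its libraries read 220.2, 220.8 and 223.2 CPM with DMSO, 155.4, 141.6 and 150.2 CPM at 5 µM, and 112.9, 124 and 121.7 CPM at 10 µM. The 3 groups did not overlap and followed the order of dose. At 5 µM the log2 fold change of -0.57 (adjusted p = 0.000839) was just under the fold limit, at 0.585 on the log2 scale, and passed it without 5 µM replicate 1 (-0.60). MAML2, a Mastermind coactivator, fell from 55.5 ± 3.39 CPM to 20.6 ± 7.26 CPM at 10 µM (log2 -1.43, adjusted p = 0.000932), with a log2 fold change of -1.17 without 10 µM replicate 1. Of the 9 nuclear activators these 2 were called lower and 0 higher at 10 µM, beside 10.5% and 8.57% of all genes tested. RBPJ and HEY1 were both called lower at 10 µM, and HES1 and HES4 were not called. A link between RBPJ and these genes was not tested, and no HEY1 promoter was available.

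L3MBTL3, a methyl-lysine reader that binds RBPJ and belongs to the corepressor list, also fell. It measured 9.24, 9.36 and 9.17 CPM with DMSO, 8.65, 5.99 and 6.88 CPM at 5 µM, and 4.61, 4.98 and 6.81 CPM at 10 µM. Every treated library lay below every DMSO library. Against DMSO, the log2 fold change was -0.37 (adjusted p = 0.25) at 5 µM and -0.76 (SE 0.182, adjusted p = 0.00969) at 10 µM, and the 10 µM value was -0.66 (adjusted p = 0.0047) without 10 µM replicate 1. In all, 2 of 11 corepressors were called lower at 10 µM and 0 higher, beside 10.5% and 8.57% of all genes tested.

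Among the enzymes that modify receptors and ligands, LFNG and NEURL1B fell at 10 µM. LFNG, the Fringe glycosyltransferase that adjusts which ligands a receptor answers to, measured 20, 18.1 and 17.3 CPM with DMSO, 12.3, 10.4 and 10.3 CPM at 5 µM, and 7.46, 4.59 and 7.05 CPM at 10 µM. The groups did not overlap, and LFNG fell by 2.90-fold at 10 µM (log2 -1.54, SE 0.175, adjusted p = 0.000135). It was the 1 pathway gene called at 5 µM (log2 -0.75, adjusted p = 0.0227), though this call was lost without any 1 of the DMSO libraries (adjusted p between 0.064 and 0.105) or without 5 µM replicate 2 or 3 (adjusted p = 0.0951 and 0.096). NEURL1B, a ubiquitin ligase that acts on ligands, fell from 1.65 ± 0.402 to 0.645 ± 0.141 CPM at 10 µM (log2 -1.35, adjusted p = 0.0159), a call lost without DMSO replicate 2 or 3 (adjusted p = 0.0764 and 0.067). LFNG was 1 of 5 glycosyltransferases and NEURL1B 1 of 4 ligand ubiquitin ligases, when 10.5% of all genes tested were called lower at 10 µM.

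Subunits of γ-secretase moved in opposite directions. Of the 9 proteases and their subunits, APH1B fell from 9.40 ± 0.47 to 5.21 ± 1.08 CPM at 10 µM (log2 -0.85, adjusted p = 0.004), and PSENEN rose from 29.2 ± 0.829 to 47 ± 9.6 CPM (log2 0.69, adjusted p = 0.0024). The PSENEN call was lost without 10 µM replicate 1 (log2 0.50) and with the length and GC trend removed (0.49). In the annotation, 50.4% of its exon bases overlap genes on the opposite strand and 15.45% a gene on the same strand.

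DLL3 and DLL4, Delta-like ligands outside the set, rose from low levels. DLL3, a ligand-like protein that inhibits Notch in the same cell, rose from 2.99 ± 0.381 to 6.46 ± 3.27 CPM at 10 µM (log2 1.11, adjusted p = 0.0177), and its log2 fold change was 0.61 without 10 µM replicate 1, in which it read 10.2 CPM against 4.42 and 4.73 CPM in the other 10 µM libraries. DLL4, the ligand of endothelial sprouting, rose from 0.396 ± 0.0505 to 1.08 ± 0.24 CPM (log2 1.45, adjusted p = 0.0173). Leaving out DMSO replicate 2 or 3 ended the DLL3 call (adjusted p = 0.0621 and 0.0716), and leaving out any 1 DMSO library ended the DLL4 call (adjusted p between 0.0508 and 0.0729). In both genes every treated library lay above every DMSO library. These were the 2 genes called among the 5 tested other receptors and ligands, when 8.57% of all genes tested were called higher at 10 µM.

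Among 12 genes of receptor turnover and inhibition 1 was called higher and 2 lower at 10 µM. Among 4 tested HES and HEY genes and feedback targets outside the set 1 was called higher and 1 lower. Of all genes tested, 8.57% were called higher and 10.5% lower at that dose. FBXW7, the ubiquitin ligase subunit that marks the intracellular domain of Notch for degradation, averaged 13.3 ± 0.984 CPM in the DMSO libraries, 19.5 ± 2.17 CPM in the 5 µM libraries and 26.5 ± 1.84 CPM in the 10 µM libraries. Its groups did not overlap, and it was called higher at 10 µM (log2 0.99, SE 0.108, adjusted p = 0.000104) but not at 5 µM (0.55, adjusted p = 0.011, under the fold limit). It passed that limit at 5 µM without DMSO replicate 3 (log2 0.585), 5 µM replicate 2 (0.586) or 5 µM replicate 3 (0.601). DTX1 and DTX3L, both Deltex ubiquitin ligases, had log2 fold changes of -0.62 and -0.60 at 10 µM and were called lower (adjusted p = 0.0234 and 0.00871), and both calls were lost without 10 µM replicate 1 (-0.49 and -0.44). DTX1 was also lost without DMSO replicate 1 or 3 (adjusted p = 0.0842 and 0.0799). HES6, which antagonises HES1, rose from 3.42 ± 0.438 to 6.41 ± 1.9 CPM (log2 0.91, adjusted p = 0.00958, and 0.64 without 10 µM replicate 1). HEY2, a paralog of HEY1, fell from 1.15 ± 0.401 to 0.388 ± 0.226 CPM (log2 -1.56, adjusted p = 0.0494). That call held in 4 of 17 alternatives and was lost without any 1 library other than 10 µM replicate 3, with an adjusted p of up to 0.205. DLK1, HES3, HES5, HEYL and NRARP were too low to be tested.

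**Figure D4:**
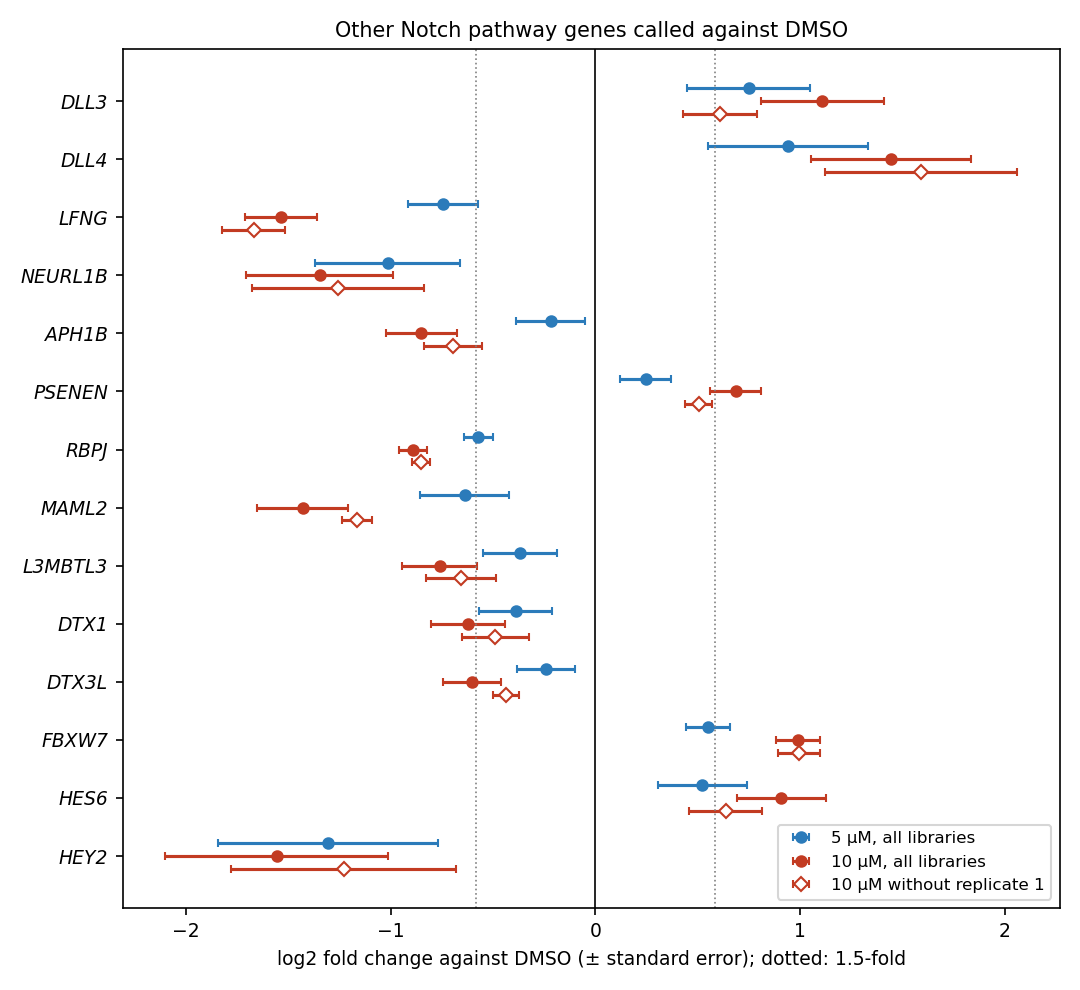
Log2 fold change against DMSO (horizontal axis, bars ± standard error) of the other Notch pathway genes named above as called against DMSO, at 5 µM, at 10 µM and at 10 µM without replicate 1, with dotted lines at 1.5-fold. RBPJ, MAML2 and LFNG lie to the left of the 1.5-fold line at 10 µM with and without the library, and FBXW7 lies to the right.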

How the data were processed

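RNA was extracted with TRIzol and sequenced on an Illumina HiSeq instrument. The protocol names oligo-dT selection and strand-specific libraries, whereas the series' design text names ribosomal RNA depletion. The values deposited by the authors are expected counts, 1 column for each of the 9 libraries and 1 row per gene symbol, with no scaling for depth. The submitters' processing notes name Bowtie2 2.1.0, RSEM 1.2.15 and hg38. Neither the annotation nor the strand setting of the counting is given in the sources used here.

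Counts were rounded and tested with edgeR 4.0.16 in R 4.3.3 (quasi-likelihood F test, TMM factors of 0.957 to 1.029, filterByExpr, 1 fit of 3 groups, Benjamini-Hochberg adjustment over 16417 genes). Standard errors were computed as |log2 fold change| / √F. The fits were tested on simulated data. DESeq2 1.42.0 was an alternative. Lengths, overlaps and positions came from GENCODE 29, and promoters from RefSeq.

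The 9 genes and the lists were chosen with earlier results of these data known. Beside the 9 genes, the text names each pathway or HLH gene called against DMSO, at most 4 per class by size at 10 µM, and the 2 genes most like each called member. The p-values measure the spread between libraries. Libraries with the same replicate number did not deviate together (correlations of -0.0493 to 0.0322), so the numbers were not used as pairs. No 2 libraries of the same group agreed within sampling noise. A few items that the naming rule covers are not reported here.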

Additional observations from a re-analysis of the deposited data

How the results depend on the processing

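Of the values of the 9 genes under the alternatives, 488 kept their direction and their side of the call, 11 gained a call, 0 lost one and 14 changed sign. The fit of 3 groups shares 1 estimate of the spread, which includes 10 µM replicate 1. Genes called at 5 µM (799) numbered 1320 with only the groups compared, 1676 by adjusted p alone and 480 to 1241 with 1 library left out (527, 480 and 488 without DMSO replicate 1, 2 and 3, and 1241 without 10 µM replicate 1). Genes called at 10 µM (3137) numbered 5634 by adjusted p alone and 2523 to 3443 with 1 library left out. Between doses the 658 genes became 266 with only the groups compared, 1379 by adjusted p alone and 379 to 871 with 1 library left out (390, 379 and 389 without 5 µM replicate 1, 2 and 3), and removing the length and GC trend moved the share called higher from 35.4% to 45.8%. Of the 9 genes, those called lower at 5 µM numbered 1 with DESeq2, 1 with only the groups compared and 0 to 1 with 1 library left out. At 10 µM, 1 was called higher with a filter of 1 CPM in 3 libraries, with DESeq2, with the length and GC trend removed and by adjusted p alone, and 0 to 2 higher and 1 to 2 lower with 1 library left out. With that filter the gene was DLL1, which passed it only through its 10 µM libraries. Pathway genes called higher at 5 µM (0) numbered 1 with only the groups compared, 2 with the length and GC trend removed, with or without a replicate block, 2 by adjusted p alone and 0 to 1 with 1 library left out. Those called lower at 5 µM (1) numbered 3 with DESeq2, 4 with only the groups compared, 2 with the length and GC trend removed, with or without a replicate block, 2 by adjusted p alone and 0 to 4 with 1 library left out. Over all genes at 5 µM, DESeq2 gave 469 higher and 559 lower of 21422. Only the groups compared gave 591 and 729 of 15849. Of 16417, removing the trend gave 433 and 482, a replicate block as well 389 and 457, and adjusted p alone 722 and 954. Leaving out 1 library gave 197 to 575 higher and 283 to 666 lower. At 10 µM, adjusted p alone gave 10 pathway genes higher and 16 lower, and leaving out 1 library gave 3 to 6 higher and 7 to 12 lower. Over all genes at 10 µM, adjusted p alone gave 2687 higher and 2947 lower of 16417. Leaving out 1 library gave 1051 to 1564 higher and 1472 to 1879 lower. DESeq2 gave 1613 and 1823 of 21422, the filter of 1 CPM in 3 libraries 1347 and 1598 of 13982, and removing the trend 1529 and 1470 of 16417. Between doses, adjusted p alone gave 2 pathway genes higher and 6 lower, and DESeq2 gave 4 lower. Only the groups compared gave 0 lower, and leaving out 1 library gave 0 to 4 lower. Over all genes between doses, adjusted p alone gave 471 higher and 908 lower of 16417, and DESeq2 gave 534 lower of 21422. With only the groups compared, 165 of 16005 were lower, and leaving out 1 library gave 258 to 572 lower. Values that changed sign were NOTCH3 at 5 µM (0.036 with the length and GC trend removed, 0.033 with a replicate block as well, -0.11 to 0.0033 with 1 library left out), HES1 at 5 µM (0.0016 with upper-quartile factors, -0.045 to 0.032), NOTCH1 at 10 µM (0.25 with the trend removed, 0.24 with a replicate block as well, -0.25 to 0.14), JAG2 at 10 µM (-0.15 to 0.48), and between doses JAG1 (-0.095 to 0.34) and HES4 (-0.85 to 0.11). With a replicate block, 687 genes were called at 5 µM, 3005 at 10 µM and 556 between doses, and no call of the 9 genes changed. The cause of these shifts was not tested.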

Other observations

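Other helix-loop-helix regulators that work beside the HES and HEY proteins were measured in the same libraries. ID2, an inhibitor of differentiation that lacks a DNA-binding region and blocks basic helix-loop-helix activators, measured 1.59, 1.25 and 1.30 CPM with DMSO, 7.25, 5.13 and 5.17 CPM at 5 µM, and 15.9, 10.1 and 9.31 CPM at 10 µM. Its groups did not overlap and followed the order of dose. ID2 rose at 5 µM (log2 2.08, adjusted p = 0.000837) and by 8.48-fold at 10 µM (log2 3.08, SE 0.253, adjusted p = 1.6e-05) in edgeR's test. ID3, a second member of this family, averaged 45.2 ± 2.08 CPM in the DMSO libraries (SD, n = 3), 67.6 ± 1.52 CPM in the 5 µM libraries and 86.5 ± 18.4 CPM in the 10 µM libraries and rose at 10 µM (log2 0.93, adjusted p = 0.000464). At 5 µM its log2 fold change of 0.58 (adjusted p = 0.0196) was just under the fold limit. BHLHE41, a repressor that also acts in the circadian clock, fell from 11.1 ± 0.706 CPM to 6.64 ± 0.156 CPM at 5 µM (log2 -0.74, adjusted p = 0.00594) and 7.11 ± 0.963 CPM at 10 µM (log2 -0.64, adjusted p = 0.00372). Of the 6 regulators listed, these were the 3 called, with 2 higher and 1 lower at 10 µM beside 8.57% and 10.5% of all genes tested, and all 3 calls at 10 µM held without 10 µM replicate 1. The BHLHE41 call at 10 µM was lost without 10 µM replicate 3 (log2 -0.54). ID2 was also called higher at 10 µM than at 5 µM (adjusted p = 0.0271), and this call was lost without 5 µM replicate 2 or 3 (adjusted p = 0.115 and 0.113) and without DMSO replicate 2 or 3 (adjusted p = 0.0506 and 0.0524).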
